A study of Mus musculus with 9 samples.

Results

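Collagens are the main structural proteins of the extracellular matrix, and each is a triple helix wound from chains of a single Col gene or of several. Fibrillar collagens (types I, III and V) form the banded fibrils that give the submucosa and muscle wall of the gut their tensile strength. Type IV collagens form the sheet of the basement membrane under the epithelium and around blood vessels and muscle cells. FACIT collagens sit on the surface of fibrils, and the remaining classes include the beaded filaments of type VI and the networks of type VIII. In the colon, fibroblasts make most fibrillar collagen, and smooth muscle, endothelial and epithelial cells also make type IV chains.

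Members were all protein-coding genes of the mouse annotation GENCODE release M21 named Col, a number, a, and a number. This gave 44 genes, of which 11 are fibrillar, 6 belong to the basement membrane, 9 are FACIT collagens and 18 are of other classes. A count was found for 42 of them, among 22262 genes with a count in any library. Col9a1 and Col19a1, both FACIT collagens, had none in any of the 9 libraries.

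The libraries came from a piece of the upper colon of wild-type (C57BL/6N) female mice aged 12 months. The standard environment (WT_SE, 4 mice, numbered 1, 2, 3 and 5) meant small groups in plain cages, and the enriched environment (WT_EE, 5 mice, numbered 1 to 5) meant larger groups in large cages with objects, tunnels and running wheels from weaning on. All mice were wild type, so the comparison asks how housing bears on gene expression in the colon wall. Library names also ended differently for WT_SE mice 1 and 3 than for all other mice. This ending is partly tied to the environment, because every WT_EE library had the commoner ending. Because enriched mice were housed together, an effect of the environment and an effect of the cage cannot be told apart.

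Counts were unique molecules read next to the poly(A) tail, so they do not grow with transcript length. CPM is a gene's count scaled to a common library total. It can be set side by side between genes only roughly, because counts of abundant genes grew less than in step with library size. Library totals lay between 295535 and 454043 counts, so that a floor of 3 counts equals 6.61 to 10.2 CPM. This floor covers counting error only. Levels are given as normalized CPM, scaled by the TMM method. WT_EE mice 2 and 4 stood apart from the other WT_EE mice. They had the smallest totals of that group (295535 and 336967) and the highest summed smooth muscle markers (4246 and 4181 normalized CPM, against 2459 to 3083 in the other 7 mice). They were also highest in summed colon epithelium markers (3935 and 3921, against 2798 to 3515). The same held for fibroblast markers (990 and 993, against 749.7 to 882) and endothelial markers (268 and 315, against 156 to 259.7). Results that rest on WT_EE mice 2 and 4 are therefore also given without them. Fat markers were uneven between libraries, with 0 to 70 counts of Adipoq, the adipocyte hormone adiponectin. The defining markers of the mesothelium were near 0, with at most 1 count of Msln in a library.

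The type IV genes Col4a1 and Col4a2 had the smallest p-values of all collagens in edgeR's quasi-likelihood test, though not in the exact permutation test, and their starts lie back to back on chromosome 8. Col4a1 (ENSMUSG00000031502, chr8:11198423-11312826, minus strand) and Col4a2 (ENSMUSG00000031503, chr8:11312805-11449287, plus strand) overlap by 22 bases at their 5′ ends. The stretch around both starts is shown because the pair is read outward from it. It is the plus strand of chr8:11312801-11312830 in RefSeq's windows for GRCm38.p6, with the 22 shared bases in capitals.
Col4a2 and Col4a1 starts: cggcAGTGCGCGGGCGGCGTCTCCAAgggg
The 3′ ends, where molecules were counted, lie 250864 bases apart, so counts of the partners do not mix there.

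Promoters of both type VI genes that were higher in WT_EE are shown because the members lie on different chromosomes and can be compared. Each is the 250 bases before the annotated start, 5′ to 3′ on the minus strand, from RefSeq's windows for GRCm38.p6. Capitals mark matches on either strand to GGGCGG (a GC box), CCAAT, CCCTCCCC (the CTC box described in type IV collagen promoters) or TATAAA.
Col6a2, chr10:76623631-76623880: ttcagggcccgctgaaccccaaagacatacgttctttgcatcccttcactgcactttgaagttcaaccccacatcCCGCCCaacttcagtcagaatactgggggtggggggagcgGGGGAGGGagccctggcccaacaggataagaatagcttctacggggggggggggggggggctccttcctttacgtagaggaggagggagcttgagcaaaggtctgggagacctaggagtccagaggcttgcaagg
Col6a3, chr1:90843972-90844221: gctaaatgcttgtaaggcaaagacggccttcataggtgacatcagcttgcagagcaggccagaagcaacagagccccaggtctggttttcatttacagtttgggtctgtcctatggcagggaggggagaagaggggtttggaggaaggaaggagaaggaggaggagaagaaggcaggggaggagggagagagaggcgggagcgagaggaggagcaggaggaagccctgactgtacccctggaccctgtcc
Col6a2 held 1 match to GGGCGG and 1 to CCCTCCCC, and Col6a3 held no match to any of the 4 motifs. Of 32851 windows of this length before all annotated starts, 32.7% held GGGCGG, 33.8% CCAAT, 9.69% CCCTCCCC and 12.4% TATAAA. Bases G and C made up 59.2% and 57.2% of the Col6a2 and Col6a3 stretches, against a median of 52.4% over all windows. A match is a run of letters and not a shown binding site. A window was found for 35 of the 44 members.

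Collagen genes together took 0.145% to 0.232% of the counts of a library, 5721 counts in all. Col1a2, Col3a1 and Col4a1 gave 40.6% of them, and the 8 genes with the most counts gave 73.9%. The order of levels over the 9 mice was led by the type I chain Col1a2 and the type III chain Col3a1, followed by Col4a1, the type I chain Col1a1, the type VI chain Col6a3 and Col4a2. Counts of abundant genes grew less than in step with library size. Over all genes with 5 to 20 counts on average, the slope of log count on log library total was 1.34. The slope was 1.13 for 40 to 60 counts (Col4a2 and Col6a3), 0.918 for 60 to 80 (Col1a1 and Col4a1) and 0.669 for 80 to 100 (Col1a2 and Col3a1). With a slope under 1, normalized CPM is higher in shallow libraries, among them those of WT_EE mice 2 and 4. With cyclic loess, a scaling that varies with a gene's level, the log2 fold change of WT_EE over WT_SE was 0.11 for Col1a2 and 0.08 for Col3a1. With TMM scaling these were 0.07 and 0.04. The part of the slope in the differences of both genes was not itself tested.

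**Figure D1:**
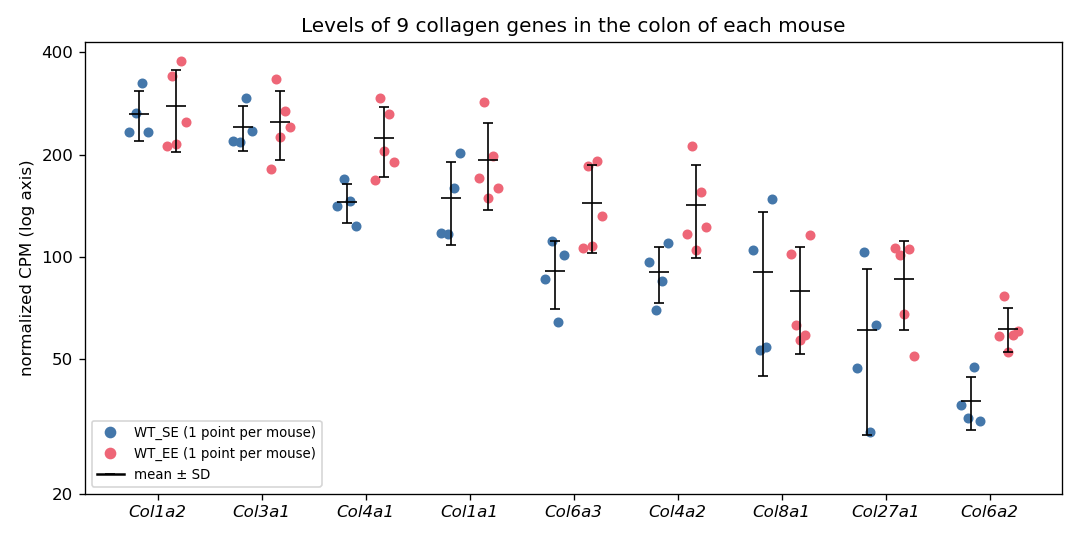
Normalized CPM (log axis) of the 9 collagen genes that had an unadjusted p under 0.05 or a mean of at least 20 counts, with 1 point per mouse and bars for mean ± SD of 4 WT_SE and 5 WT_EE mice. Col6a2 is the gene whose groups do not overlap (32.8 to 47.3 against 52.5 to 76.7).

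Of the 34 collagen genes that had at least 4 CPM in a library and were tested, 4 had an unadjusted p under 0.05 in edgeR's quasi-likelihood test, the threshold at which a gene is called here, and all 4 were higher in WT_EE. They are the basement membrane genes Col4a1 and Col4a2 and the type VI genes Col6a2 and Col6a3. Among all 17441 genes tested, 1334 had such a p (7.65%), with 751 higher (4.31%) and 583 lower (3.34%) in WT_EE. The 4 of 34 higher collagens therefore stand beside a background of 4.31%, and no collagen gene was lower at that p, beside 3.34%. With upper quartile scaling the split over all genes turned to 615 higher and 753 lower, while the same 4 collagen genes were called. None of the 34 passed the Benjamini-Hochberg adjustment over all genes in edgeR, which 7 genes (0.0401%) did. In DESeq2 and limma-voom no gene at all passed it. DESeq2 gave the same 4 collagens an unadjusted p under 0.05, beside 643 of all genes. In limma-voom 5 collagens had one, the same 4 as higher and Col11a1, with 6 counts in all, as lower, beside 1357 of all genes. Differences below are log2 fold changes of WT_EE over WT_SE from edgeR, with their standard error (SE).

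Over the 34, 23 fold changes were above 0 (67.6%) with a median of 0.20, beside 51.1% and a median of 0.01 over all genes tested. Over the 19 collagens with a mean of at least 5 counts, 16 were above 0 with a median of 0.34, beside 50.7% and 0.00 over the 10830 genes at that level. With WT_EE mice 2 and 4 left out, 13 of these 19 were above 0 with a median of 0.20, beside 50.7% and 0.01 over all genes at that level, and 20 of 32 at any level, with a median of 0.07. Without WT_EE mice 2 and 4, 3 of 32 tested collagens had an unadjusted p under 0.05, Col4a1 and Col6a2 as higher and Col11a1, which had 6 counts in all, as lower. Over all genes, 1304 of 17161 were called without those mice, 590 as higher and 714 as lower in WT_EE.

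**Figure D2:**
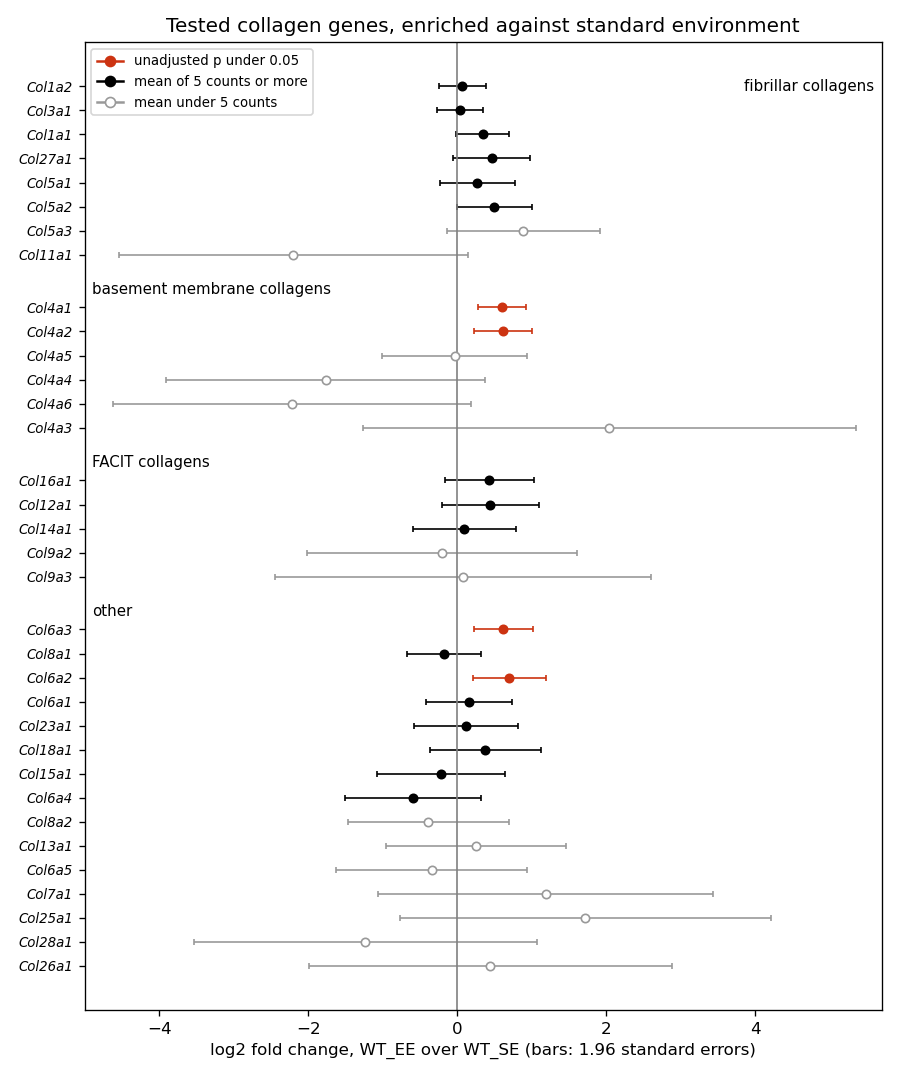
log2 fold change of WT_EE over WT_SE for the 34 tested collagen genes, by class and, within a class, from most to fewest counts, with bars for the 95% interval. Red marks an unadjusted p under 0.05, which Col4a1, Col4a2, Col6a3 and Col6a2 had, and open grey circles mark genes with under 5 counts on average, whose bars are the widest.

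Among basement membrane collagens, Col4a1 and Col4a2, whose chains form the common type IV trimer, gave nearly all counts. Col4a1 was at 141, 169.9, 145 and 123 normalized CPM in WT_SE mice 1, 2, 3 and 5, and at 168, 293, 205, 263 and 189.7 in WT_EE mice 1 to 5. WT_EE mouse 1 lay just under WT_SE mouse 2, and the other 4 WT_EE mice lay above every WT_SE mouse. The log2 fold change was 0.60 (SE 0.16), with p = 0.000773 and adjusted p = 0.190 in edgeR, and p = 0.0317 in a two-sided exact permutation test of the group labels. Leaving out WT_EE mice 2 and 4 gave 0.37, still with an unadjusted p under 0.05 (adjusted p = 0.534).

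Col4a2 was at 96.6, 69.6, 84.5 and 109 normalized CPM in the WT_SE mice and at 117, 213, 105, 155 and 123 in the WT_EE mice, in the same order. WT_EE mouse 3 lay below WT_SE mouse 5, and no other WT_EE mouse lay within the WT_SE range. Its log2 fold change was 0.62 (SE 0.20), with p = 0.00377 and adjusted p = 0.312 in edgeR and p = 0.0476 in the exact permutation test. Without WT_EE mice 2 and 4 it was 0.34 and no longer called (adjusted p = 0.746), so the call rests on those libraries.

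The other 4 type IV chains were at or near the floor. Col4a5 had 38 counts in all and a log2 fold change of -0.04 (SE 0.50, 95% interval -1.01 to 0.94), which leaves room for a change of either sign. Col4a3, Col4a4 and Col4a6, the chains of the kidney glomerulus and of smooth muscle basement membranes, had 2, 8 and 6 counts over the 9 libraries, and their differences are not interpreted. As on chromosome 8, these genes lie in pairs with facing starts, Col4a3 and Col4a4 with 71 bases between them and Col4a5 and Col4a6 with 1308.

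Of the 15 other basement membrane genes tested (laminins, nidogens and proteoglycans), 1 had an unadjusted p under 0.05, beside 7.65% of all genes, and the list's median log2 fold change was 0.14. Hspg2, the heparan sulfate proteoglycan perlecan, was the gene called. It was at 44.4, 52.9, 54.1 and 71.1 normalized CPM in the WT_SE mice and at 58.3, 108, 72.1, 83.5 and 83.3 in the WT_EE mice, so that only WT_EE mouse 1 lay within the WT_SE range. It had a log2 fold change of 0.51 (SE 0.23), with p = 0.0313 and adjusted p = 0.580 in edgeR and p = 0.0317 in the exact permutation test, and 0.35 without WT_EE mice 2 and 4, no longer called. Lamb1, the laminin β1 chain and the laminin list's most counted gene, had a log2 fold change of -0.09 (SE 0.18). Pxdn, peroxidasin, which makes the sulfilimine cross-links between type IV trimers, was at 8.20 to 16.7 normalized CPM in 3 of the WT_SE mice, 3.38 in WT_SE mouse 3 and 17.5 to 25.9 in the WT_EE mice. Its groups did not overlap, but its counts were 1 to 6 against 7 to 12, and the log2 fold change was 1.09 (SE 0.45, adjusted p = 0.517 in edgeR, exact permutation p = 0.00794).

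Type VI collagen is a trimer of the α1 and α2 chains with α3 or one of its relatives α4 to α6, and forms microfilaments between cells and the fibrils. Col6a2 (ENSMUSG00000020241) was at 36.5, 33.4, 47.3 and 32.8 normalized CPM in the WT_SE mice and at 58.3, 76.7, 52.5, 58.8 and 60.2 in the WT_EE mice. It was the only collagen gene of the 34 whose groups did not overlap, beside 1.38% of all tested genes that lay wholly higher and 1.2% that lay wholly lower in WT_EE. The log2 fold change was 0.70 (SE 0.25), with p = 0.00848 and adjusted p = 0.413 in edgeR and p = 0.00794 in the exact permutation test, the smallest that test can give. Leaving out WT_EE mice 2 and 4 gave 0.61, still with an unadjusted p under 0.05 (adjusted p = 0.603).

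Col6a3 (ENSMUSG00000048126), the largest and most counted type VI chain, was at 86.1, 111, 64.3 and 101 normalized CPM in the WT_SE mice and at 106, 185, 107, 192 and 132 in the WT_EE mice. WT_EE mice 1 and 3 lay below WT_SE mouse 2. The log2 fold change was 0.62 (SE 0.20), with p = 0.00385 and adjusted p = 0.315 in edgeR and p = 0.0556 in the exact permutation test. It was 0.32 without WT_EE mice 2 and 4, and no longer called (adjusted p = 0.748). Library names end differently for WT_SE mice 1 and 3 than for the other 7 mice, and what the ending marks is not stated. With that ending as a term the log2 fold change was 0.40, and within the 7 it was 0.41, neither of them called.

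Col6a1, which lies 85161 bases from Col6a2 on chromosome 10 and encodes the third core chain, was not called. It was at 27.8 to 40.6 normalized CPM in WT_SE and 24.0 to 48.8 in WT_EE, and its log2 fold change was 0.15 (SE 0.29, 95% interval -0.42 to 0.73), an interval that also holds the values of Col6a2 and Col6a3. Col6a1 counts were 0.902 ± 0.0743 of those of Col6a2 in WT_SE (SD, n = 4) and 0.613 ± 0.115 in WT_EE (SD, n = 5). Of the α3 relatives, Col6a4 had 48 counts and a log2 fold change of -0.60 (SE 0.47), Col6a5 had 23 and Col6a6 had 1. These 3 genes are neighbours on chromosome 9 with similar sequences, so their split is uncertain.

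Fibrillar collagens, the class with the most counts, held 6 genes with at least 5 counts on average, all with a fold change above 0 and none called. Col1a1 and Col1a2 encode the chains of type I collagen, the main fibril of the gut wall. Col1a1 was at 117, 117, 159 and 202 normalized CPM in the WT_SE mice and at 171, 286, 149, 198 and 159.6 in the WT_EE mice. The groups overlapped, with WT_SE mouse 5 above 4 of the 5 WT_EE mice. Its log2 fold change was 0.34 (SE 0.18, 95% interval -0.01 to 0.70), with adjusted p = 0.673 in edgeR and p = 0.262 in the exact permutation test. Leaving out WT_SE mouse 5 gave 0.54, with an unadjusted p under 0.05, and leaving out WT_EE mice 2 and 4 gave 0.10, so a few libraries set the value.

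Col1a2 was at 232, 265, 325 and 232 normalized CPM in the WT_SE mice and at 212, 342, 214, 377 and 250 in the WT_EE mice. The 3 highest values came from the 3 libraries with the smallest totals, WT_SE mouse 3 and WT_EE mice 2 and 4. The log2 fold change was 0.07 (SE 0.16, 95% interval -0.25 to 0.38), and it was -0.22 without WT_EE mice 2 and 4. Col3a1, the type III chain that mixes with type I in distensible tissues, was at 219, 217, 294 and 235 in the WT_SE mice and at 181, 335, 225, 269 and 241 in the WT_EE mice. It had a log2 fold change of 0.04 (SE 0.15, 95% interval -0.27 to 0.34), and -0.16 without WT_EE mice 2 and 4. For both genes the intervals hold small changes of either sign.

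Col5a1 and Col5a2, the type V chains that set fibril diameter, were at 31.3 to 60.1 and 23.7 to 50.1 normalized CPM in WT_SE and at 39.3 to 64.9 and 46.4 to 69.7 in WT_EE. Their log2 fold changes were 0.27 (SE 0.26) and 0.50 (SE 0.26), with adjusted p = 0.855 and adjusted p = 0.667 in edgeR. Col27a1, a minor fibrillar collagen, was at 47.0, 103, 30.4 and 62.9 normalized CPM in the WT_SE mice and at 106, 101, 67.8, 105 and 50.9 in the WT_EE mice. WT_SE mouse 2 lay among the 3 highest WT_EE mice. It had a log2 fold change of 0.46 (SE 0.26, adjusted p = 0.70 in edgeR, exact permutation p = 0.222). Leaving out WT_SE mouse 2 gave 0.83, with an unadjusted p under 0.05, and leaving out WT_SE mouse 3 gave 0.27, not called. With the library-name ending as a term it was 0.035, and within the 7 libraries of the commoner ending 0.048, neither of them called.

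The remaining fibrillar genes were scarce. Col5a3 had 43 counts and a log2 fold change of 0.88 (SE 0.52). Col11a1 had 6 counts in all, no library over the floor, and Col2a1 and Col11a2, known from cartilage, and Col24a1 had 1 count each.

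FACIT collagens were represented by Col16a1, Col12a1 and Col14a1, with 155, 98 and 84 counts in all, and none was called. Col16a1 was at 26.1, 61.3, 10.1 and 51.9 normalized CPM in the WT_SE mice and at 44.0 to 59.3 in the WT_EE mice, so the spread lay in WT_SE. Its log2 fold change was 0.43 (SE 0.30). Col12a1, which binds fibrils in tissue under load, had 0.44 (SE 0.33), and Col14a1 had 0.10 (SE 0.35). Of the other 6 FACIT genes, Col9a2 had 11 counts, Col9a3 5, Col20a1 3 and Col22a1 1.

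Among the classes grouped as other, Col8a1, a network-forming chain of vessels and connective tissue, differed more between mice than between environments. It was at 104, 52.9, 54.1 and 148 normalized CPM in the WT_SE mice and at 101, 62.7, 56.8, 58.8 and 116 in the WT_EE mice. Mice 1 and 5 of both environments lay at 101 to 148 and the other 5 mice at 52.9 to 62.7, with no value between. Its log2 fold change was -0.18 (SE 0.25, 95% interval -0.67 to 0.32). Whether a mouse number links animals across environments is not stated.

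Col23a1, a transmembrane collagen, had 108 counts, with 1 count in WT_SE mouse 3 and 6 to 18 in each of the other 8 libraries. Its log2 fold change was 0.12 (SE 0.35). Col18a1 and Col15a1, the basement membrane collagens whose ends are cut to endostatin and a like fragment, had 76 and 53 counts, with log2 fold changes of 0.38 (SE 0.38) and -0.22 (SE 0.44). Col18a1 overlaps Slc19a1 on the other strand, and whether counting used strand was not stated. Col8a2 had 35 counts, Col13a1 27, Col7a1, the anchoring fibril of stratified epithelia, 9, Col25a1 7, and Col26a1 and Col28a1 6 each. Col10a1 and Col17a1 had 1 count each.

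Summed over classes, the basement membrane collagens were at 256, 253, 260.4 and 249 normalized CPM in the WT_SE mice and at 296, 523, 323, 429.9 and 329 in the WT_EE mice. The WT_SE mice lay close together, and every WT_EE mouse lay above them. Means were 255 ± 4.86 (SD, n = 4) and 380.1 ± 94.6 (SD, n = 5), a ratio of 1.49, and 1.24 without WT_EE mice 2 and 4. The 6 type VI genes summed to 188, 198, 186 and 183 in WT_SE and to 231, 331, 205, 300.0 and 238 in WT_EE, a ratio of 1.38, and 1.19 without those mice. In both classes the sums did not overlap and were set by the called genes, so they are a description and were not tested.

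Fibrillar sums overlapped, at 705 to 883 normalized CPM in WT_SE and 769 to 1217 in WT_EE. The ratio of means was 1.15, and 0.977 without WT_EE mice 2 and 4, which were the only WT_EE mice above the WT_SE range. FACIT sums were 57.5 to 104 in WT_SE and 98.4 to 139 in WT_EE, a ratio of 1.30, and 1.18 without WT_EE mice 2 and 4. WT_SE mouse 3 lay far below its group, and without it the difference of means fell from 27.2 to 16.1 normalized CPM.

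**Figure D3:**
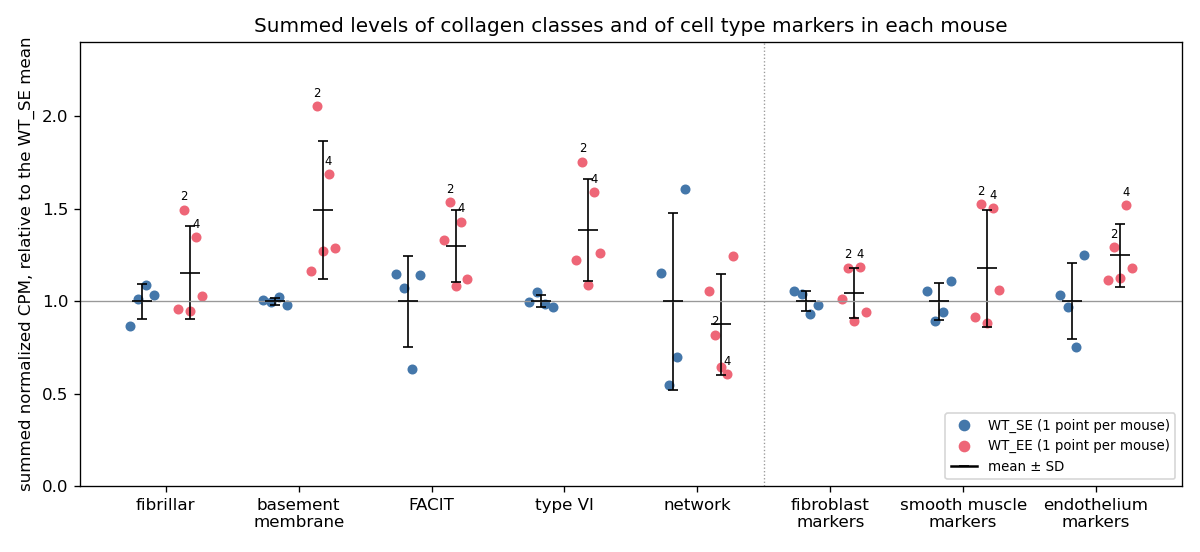
Summed normalized CPM of collagen classes and, right of the dotted line, of cell type marker lists, divided by the WT_SE mean, with 1 point per mouse, bars for mean ± SD of 4 WT_SE and 5 WT_EE mice, and WT_EE mice 2 and 4 numbered. Basement membrane and type VI sums lie above every WT_SE mouse in all 5 WT_EE mice. Mice 2 and 4 are also the highest in fibroblast, smooth muscle and endothelium markers.

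Markers of the cells that make collagen moved in part with these sums. The calls among them stand beside 4.31% of all genes called as higher and 3.34% called as lower in WT_EE. The 10 smooth muscle markers summed to 2484 to 3083 normalized CPM in WT_SE and 2459 to 4246 in WT_EE, and 3 of the 10 were called as higher in WT_EE, Smtn, Des and Acta2, with log2 fold changes of 0.43, 0.38 and 0.36. Without WT_EE mice 2 and 4 these were 0.20, 0.03 and -0.03, none with a p under 0.05. In that setting 1 of the 10 muscle markers was called as lower, beside 714 of 17161 genes. The 8 endothelial markers summed to 156 to 259.7 in WT_SE and 231 to 315 in WT_EE, with Kdr, a receptor for VEGF, called (0.41, SE 0.20, adjusted p = 0.649 in edgeR), and Cldn5 was at 0 to 2 counts. The 10 fibroblast markers summed to 781 to 882 and 749.7 to 993. Of the 9 tested, Gsn was called (0.32), while Dcn, the proteoglycan decorin and the most counted of them, had a log2 fold change of -0.08 (SE 0.14). In WT_EE mice 2 and 4, smooth muscle sums and type IV sums both lay above the WT_SE range. In WT_EE mice 1, 3 and 5, smooth muscle sums were 2459 to 2950 and type IV sums 296 to 329, against 249 to 260.4 for type IV in WT_SE. The part of muscle or vessel content in the type IV and type VI results was not tested. More cells of a type and more RNA per cell cannot be told apart in bulk tissue.

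Summed adipocyte markers ranged over 161 to 1485 normalized CPM in WT_SE and 199 to 833 in WT_EE. Of the 10 tested, 2 were called as lower, beside 3.34% of all genes. Lpl, lipoprotein lipase, had a log2 fold change of -0.56 (adjusted p = 0.632 in edgeR). Plin1, a coat protein of fat droplets with under 5 counts on average, had -1.80 (adjusted p = 0.517 in edgeR). The 10 colon epithelium markers summed to 2798 to 3515 and 3008 to 3935. Of these 10, 1 was called as higher, Lgals4 (0.31), beside 4.31% of all genes, and the most counted, Cdh1, was at -0.07. Leukocyte markers, led by Cd74 (-0.12), summed to 240.1 to 604 and 263 to 475, with none of 7 called, beside 7.65% of all genes. Glial markers summed to 21.9 to 61.3 and 48.6 to 89.7. Mesothelial markers summed to 10.1 to 36.5 and 12.95 to 27.8, with at most 4 counts in a library of Upk1b, the most counted. Of the 4 tested, 1 was called as lower, beside 3.34% of all genes. Without WT_EE mice 2 and 4, Gsn (0.10), Kdr (0.30), Lpl (-0.38) and Lgals4 (0.21) were no longer called. In that setting 1 adipocyte, 1 epithelium and 1 mesothelium marker were called as lower, of 10, 10 and 4 tested, beside 714 of 17161 genes.

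Collagen chains need hydroxylation and folding in the endoplasmic reticulum before secretion. Of 19 genes for these steps, all tested, 3 were called, all higher in WT_EE, beside 4.31% of all genes. Plod2, which hydroxylates the lysines that later carry stable cross-links, was the one of them with at least 5 counts on average. It was at 36.5, 50.1, 33.8 and 35.5 normalized CPM in the WT_SE mice and at 49.7, 90.6, 48.1, 61.9 and 55.5 in the WT_EE mice. WT_SE mouse 2 was level with the lowest WT_EE mice, and the log2 fold change was 0.60 (SE 0.26, p = 0.0272, adjusted p = 0.555 in edgeR, exact permutation p = 0.0476), and 0.38 and no longer called without WT_EE mice 2 and 4. Mia3, which loads procollagen into transport carriers and was the most counted of the list, had a log2 fold change of -0.0043 (SE 0.14).

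Procollagen processing and cross-linking had the highest share of called genes among the lists, 4 of 10 tested, all higher in WT_EE, beside 4.31% of all genes. The lysyl oxidase family forms the covalent cross-links of fibrils and of type IV networks. Loxl2 was at 52.2, 41.8, 16.9 and 79.3 normalized CPM in the WT_SE mice and at 64.8, 167, 76.5, 192 and 97.2 in the WT_EE mice. WT_EE mice 1 and 3 lay below WT_SE mouse 5, and the log2 fold change was 1.23 (SE 0.30, p = 0.000184, adjusted p = 0.111 in edgeR, exact permutation p = 0.0556). Loxl1 was at 10.1 to 22.3 in WT_SE, from 3 to 8 counts, and at 15.3 to 34.9 in WT_EE, with a log2 fold change of 0.86 (SE 0.41, adjusted p = 0.631 in edgeR, exact permutation p = 0.0635). Tgm2, a transglutaminase that cross-links matrix proteins and the list's most counted gene, was at 47.3 to 80.9 in WT_SE and 83.7 to 111 in WT_EE, without overlap, with 0.48 (SE 0.20, adjusted p = 0.527 in edgeR, exact permutation p = 0.0159). Without WT_EE mice 2 and 4, Loxl2 (0.70), Pxdn (1.03) and Tgm2 (0.58) had an unadjusted p under 0.05 and Loxl1 (0.55) did not. WT_SE mouse 3 was the lowest mouse for Loxl2, Loxl1, Pxdn and Tgm2, and differences without it are not given here.

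TGF-beta is the main inducer of matrix genes in fibroblasts. Its target Ccn2, connective tissue growth factor, was at 39.2, 83.5, 3.38 and 57.4 normalized CPM in the WT_SE mice and at 73.4, 206, 153, 114 and 106 in the WT_EE mice. Only WT_EE mouse 1 lay within the WT_SE range, and WT_SE mouse 3 had 1 count. It had a log2 fold change of 1.43 (SE 0.31, p = 4.66e-05, adjusted p = 0.0527 in edgeR, exact permutation p = 0.0238), and 1.22 without WT_EE mice 2 and 4, still called. Tgfb2, a TGF-beta ligand, had 0.64 (SE 0.26, adjusted p = 0.499 in edgeR, exact permutation p = 0.0794), and 0.28 without those mice, no longer called. Smad4, the shared transducer and the list's most counted gene, had -0.13 (SE 0.16). Of the list's 15 genes, all tested, 2 were called as higher and none as lower, beside 4.31% and 3.34% of all genes.

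Matrix proteins that bind collagen and proteins that remove it gave 1 called gene each, of 16 and 10 tested, beside 7.65% of all genes. Of 16 tested collagen-binding proteins, Tnc, the matrix protein tenascin-C, was higher in WT_EE, at 91.3 to 167 normalized CPM in WT_SE and 129.5 to 244 in WT_EE (log2 fold change 0.52, SE 0.18, p = 0.00698, adjusted p = 0.394 in edgeR, exact permutation p = 0.0952). Of 10 tested proteases and inhibitors, Mmp14, the membrane protease that cleaves fibrillar collagen, was higher, at 91.4, 117, 112 and 131 in the WT_SE mice and 145, 227, 120.2, 235 and 167 in the WT_EE mice. WT_EE mouse 3 alone lay within the WT_SE range, and the log2 fold change was 0.63 (SE 0.18, p = 0.00148, adjusted p = 0.220 in edgeR, exact permutation p = 0.0476). Timp3, a matrix-bound inhibitor of such proteases, had 0.10 (SE 0.14). With WT_EE mice 2 and 4 left out, Tnc (0.27) and Mmp14 (0.35) were not called. In that setting 1 of the 16 collagen-binding genes was called as lower, beside 714 of 17161 genes.

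Of 10 tested collagen receptors 1 was called, beside 7.65% of all genes. This gene, Itga2, the α2 integrin of epithelium and platelets, was lower in WT_EE. It was at 133, 117, 156 and 159 normalized CPM in the WT_SE mice and at 112, 59.3, 125, 71.1 and 123 in the WT_EE mice. WT_EE mice 2 and 4 were the lowest, and without them the log2 fold change of -0.48 (SE 0.19, adjusted p = 0.486 in edgeR, exact permutation p = 0.0635) became -0.23, not called. Itgb1, the β1 integrin that pairs with it, had -0.07 (SE 0.15), and -0.29 without them, with an unadjusted p under 0.05 (adjusted p = 0.589).

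**Figure D4:**
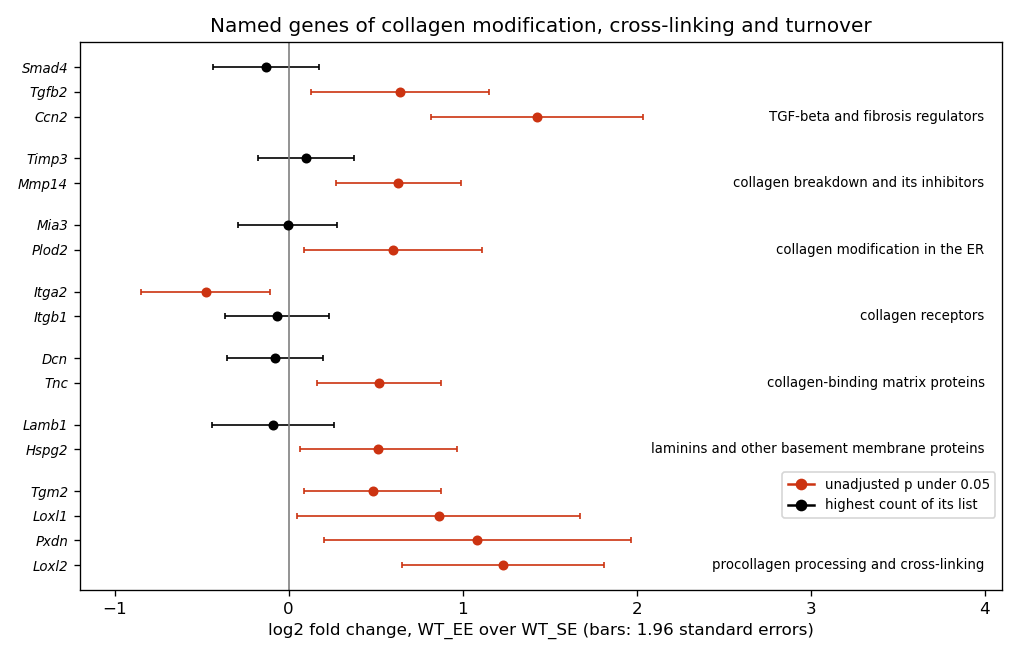
log2 fold change of WT_EE over WT_SE for the named genes of each collagen-related list, with bars for the 95% interval. Red marks an unadjusted p under 0.05 and black the most counted gene of a list where it was not called. Ccn2 (1.43) and Loxl2 (1.23) lie highest and Itga2 (-0.48) lowest.

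Chains of 1 trimer, or of 1 fibril for Col1a1 and Col3a1, were set against each other across the 9 mice on log2(normalized CPM + 1). Exact permutation p-values were adjusted over the 6 pairs compared. Col4a1 and Col4a2 had Pearson's r = 0.75 (exact permutation p = 0.0196, adjusted 0.118) and Spearman's rho = 0.60 (exact p = 0.0968, adjusted 0.266). Without WT_EE mice 2 and 4, the mice farthest from the median of Col4a1, r was 0.14, so the relation rests on those libraries. After the group means were taken out, r was 0.45 over the 9 mice.

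Col1a1 and Col1a2 had r = 0.48 (exact p = 0.189, adjusted 0.284) and rho = 0.32 (exact p = 0.410, adjusted 0.492), and r was 0.36 without the 2 mice farthest in Col1a1, WT_SE mouse 2 and WT_EE mouse 2. Col1a1 and Col3a1 had r = 0.62 (exact p = 0.0717, adjusted 0.215) and rho = 0.55 (exact p = 0.133, adjusted 0.266), with r = 0.21 without the same mice. Col5a1 and Col5a2 had r = 0.38 (exact p = 0.319, adjusted 0.382) and rho = 0.35 (exact p = 0.359, adjusted 0.492), with r = 0.51 without the 2 farthest. None of these pairs passed the adjustment.

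Col6a1 and Col6a2 had r = 0.56 (exact p = 0.117, adjusted 0.234) and rho = 0.58 (exact p = 0.108, adjusted 0.266), with r = 0.68 without the 2 farthest and r = 0.78 after the group means were taken out. Col6a1 and Col6a3 had r = 0.13 (exact p = 0.728) and rho = 0.00 (exact p = 1), and r was -0.27 without the 2 farthest. At these counts, of 10 to 21 per library for Col6a1, counting error is a large part of the spread.

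**Figure D5:**
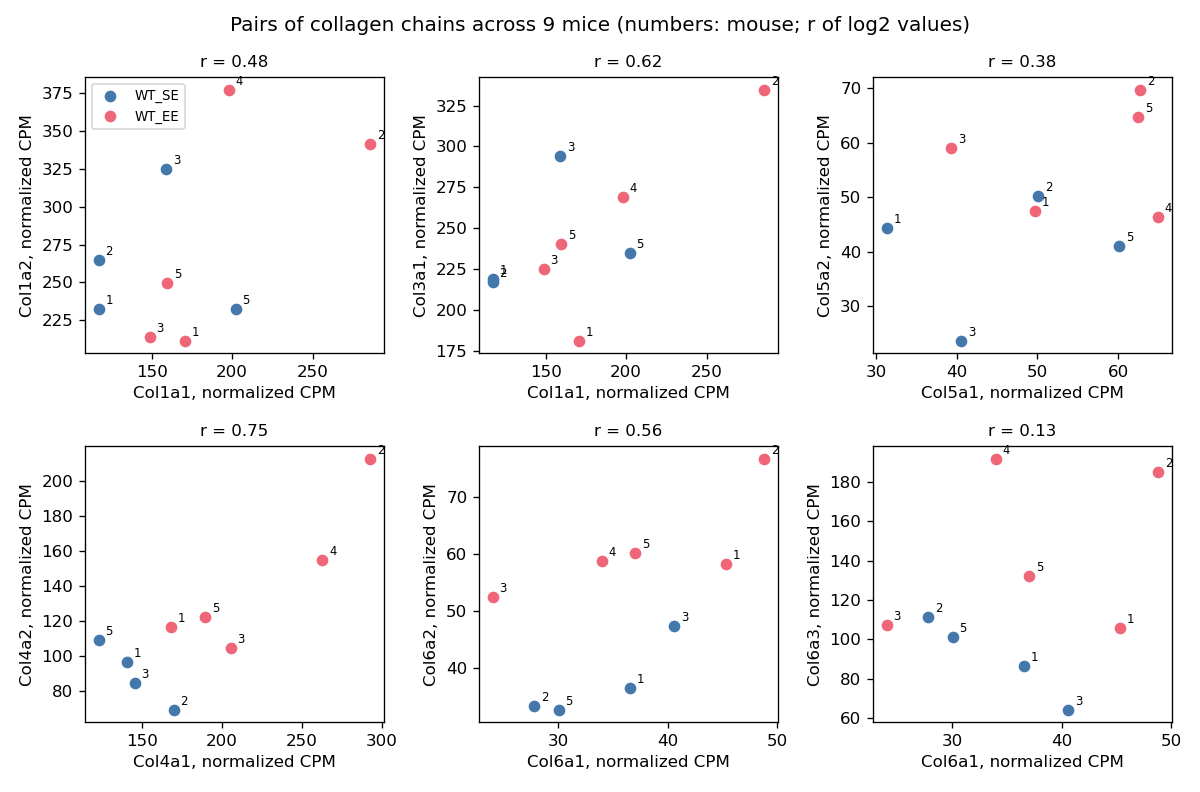
Normalized CPM of 6 pairs of collagen chains, with 1 numbered point per mouse and r of the log2 values above each panel. WT_EE mice 2 and 4 lie at the upper right for Col4a1 and Col4a2 (r = 0.75), which fell to 0.14 without them.

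Summed over all libraries, Col1a1 had 0.641 counts for each count of Col1a2, with ratios of 0.442 to 0.871 in single libraries. Col4a1 had 1.59 counts for each count of Col4a2, with 1.13 to 2.44. Type I and type IV trimers hold more α1 than α2 chains, and the slope under 1 of abundant genes limits what these ratios can show.

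The genes most like Col1a1 across the 9 mice, among 5811 genes with at least 20 counts on average, were Ezr (Spearman's rho = 0.98), Cald1 (0.93), Tpm1 (0.93), Mul1 (0.92) and Tmem256 (0.92). Cald1 and Tpm1 encode the actin-binding proteins caldesmon and tropomyosin 1, Ezr encodes the membrane linker ezrin, and Mul1 a mitochondrial ubiquitin ligase. The points share library depth, and these are descriptions over 9 mice of which the top of 5811 was taken. No collagen gene was among the 5.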

How the data were processed

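Colon RNA of 9 mice was made into QuantSeq 3′ libraries by the authors. Per the submitters' processing notes, fastp 0.20.0, STAR 2.7.0f, Subread's featureCounts 1.6.0 and UMI-tools were used with GRCm38.p6. The deposited values are raw counts of molecules per gene, not normalized. The 17441 genes that reached 4 CPM in any library were tested in edgeR 4.0.16 (R 4.3.3) with TMM scaling and the quasi-likelihood test. Environment was the only term, and p-values were adjusted by Benjamini-Hochberg. The procedure was tested on simulated data. DESeq2 1.42.0 and limma 3.58.1 served as alternatives. A gene was called at an unadjusted p under 0.05. Libraries of the same environment differed by a chi-square per degree of freedom of at least 1.19, so each was counted as its own sample.

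Collagens with values in every mouse had such a p or a mean of at least 20 counts. Named genes of the other lists had such a p and a mean of at least 5 counts, or the highest mean of their list. Members and lists were chosen with earlier results of these data known. Values for further collagens, the naming of Col11a1 and Slc10a2, the cyclic loess scaling, the settings that leave out WT_EE mice 2 and 4 or use Slc10a2, and the alternatives for chain pairs were chosen after seeing the data. Transgenic mice and WT_SE mouse 4 were not analysed here. A result of the glial marker list is not reported here.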

Additional observations from a re-analysis of the deposited data

Results flagged for a closer look

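Among 116 groups of mice whose values were checked for a sample far from the rest, 4 were found, and chance alone would give about 5.8. WT_SE mouse 2 was the highest of its group for Plod2 (50.1 normalized CPM, against 33.8 to 36.5) and for Loxl1 (22.3, against 10.1 to 10.9). It was the lowest for Smad4 (128, against 166 to 169). Summed FACIT collagens were lowest in WT_SE mouse 3 (57.5, against 97.5 to 104).

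Slc10a2, the ileal bile acid transporter and a gene chosen after its values were seen, had 103 to 117 counts in WT_SE mice 2 and 3 and WT_EE mice 1 and 3, and 3 to 26 in the other 5 mice. These are not groups of the study. The environment effect differed between the 4 libraries with many and the 5 with few counts of Slc10a2 for 4 named collagens, by an interaction term in edgeR with an unadjusted p under 0.05. The log2 difference, many minus few, was -0.92 for Col1a2 (adjusted p = 0.177), -0.61 for Col3a1 (adjusted p = 0.753), -0.65 for Col4a1 (adjusted p = 0.794) and 1.18 for Col8a1 (adjusted p = 0.562). Over all genes, 1039 of 17441 (5.96%) had such a p, and 32 passed the adjustment. WT_EE mice 2 and 4 are both among the libraries with few counts, so these differences and those libraries cannot be told apart.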

How the results depend on the processing

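Col4a1, Col4a2, Col6a2 and Col6a3 were above 0 in all 29 alternatives and called in 27, 25, 26 and 23 of them. Leaving out each mouse in turn, their log2 fold changes ranged over 0.50 to 0.70, 0.45 to 0.73, 0.62 to 0.82 and 0.51 to 0.73. Col4a1 passed the adjustment in 4 alternatives. It did so with no filter on low counts (adjusted p = 0.0254) and with Slc10a2 as a covariate (adjusted p = 0.0201). It also did within the libraries with few Slc10a2 counts (adjusted p = 0.00822, and 0.00151 with cyclic loess). Over all genes, 143, 187, 95 and 128 passed in these settings, in the same order, beside 7 in the main fit. Col6a3 passed the adjustment in 1, within few counts with cyclic loess (adjusted p = 0.0369), where 128 genes did.

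Genes called numbered 804 with filterByExpr, 688 with a term for library-name endings and 680 within the 7 libraries of the commoner ending. They numbered 643 in DESeq2 and 410 at an unadjusted p under 0.01. Without single mice they numbered 899 to 1581, and were fewest without WT_SE mouse 3. Collagens called were 4 to 8 without single mice. They were 8 without WT_SE mouse 2, 7 without WT_SE mouse 5 and 7 without WT_EE mouse 5, beside 1573, 1581 and 1243 of all genes. Within the libraries with few Slc10a2 counts 7 were called (9 with cyclic loess), with Col1a2 as higher and Col8a1 as lower both times. Over all genes these settings called 1302 and 1401. Within those with many, 1 was called (1 with cyclic loess, Col1a2 as lower both times), beside 1299 and 1116 of all genes. With cyclic loess without WT_EE mice 2 and 4, 2 were called, Col4a1 as higher and Col11a1 as lower, beside 1053 of all genes. Col6a2 was at 0.51 in that setting and was not called.

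Col1a2 turned to -0.065 with the replicate block, -0.22 without WT_EE mice 2 and 4 (-0.091 with cyclic loess) and -0.46 within many Slc10a2 counts (-0.30 with cyclic loess), against 0.46 within few (0.42 with cyclic loess), and ranged over -0.059 to 0.18 without single mice. Col3a1 turned to -0.0016 with upper quartile scaling, -0.0030 with the replicate block, -0.16 without WT_EE mice 2 and 4 (-0.040 with cyclic loess) and -0.32 within many (-0.17 with cyclic loess), with -0.076 to 0.15 without single mice. Col8a1 turned to 0.56 within many (0.46 with cyclic loess), against -0.61 within few (-0.60 with cyclic loess), with -0.36 to 0.17 without single mice. The causes were not tested.

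Without single mice, r ranged over 0.28 to 0.80 for Col1a1 and Col3a1 (0.67 with upper quartile scaling), 0.55 to 0.84 for Col4a1 and Col4a2, 0.37 to 0.79 for Col6a1 and Col6a2, and -0.20 to 0.37 for Col6a1 and Col6a3. The fibrillar sum, higher by 125.6 normalized CPM in WT_EE, differed by 56.4 without WT_EE mouse 2 and by -18.4 without WT_EE mice 2 and 4. The other class sums stayed higher in WT_EE under both other scalings, without each single mouse and without WT_EE mice 2 and 4.

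Mouse numbers are shared by the environments. Same-numbered mice correlated at -0.018, 0.028, 0.16 and 0.17, within the -0.38 to 0.25 of differently numbered mice. So few values cannot decide whether the numbers mark something shared. With the mouse number as a replicate block 1170 genes and 5 collagens were called, Col5a2 in addition. Depth limits the 25 members with under 5 counts on average.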
